A study of Homo sapiens with 10 samples.

Results

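The 7 genes that encode the CDK inhibitors of the CIP/KIP and INK4 families were followed through p53 activation in human fibroblasts. They were chosen by symbol and were all present in both deposited tables, among 11258 transcripts that the tables share. CDKN1A (p21), CDKN1B (p27) and CDKN1C (p57) make up the CIP/KIP family, 3 genes, and CDKN2A (p16 and, from another reading frame, the p53 activator ARF), CDKN2B (p15), CDKN2C (p18) and CDKN2D (p19) the INK4 family, 4 genes. The cells were BJ fibroblasts, a human line immortalised with hTERT, the catalytic subunit of telomerase. They were either left untreated (control) or exposed to nutlin-3a, which frees p53 from its inhibitor MDM2, for 2, 4, 6 or 19 h. Each of the 5 conditions was profiled by RNA-Seq of poly(A) RNA and by Ribo-Seq, the sequencing of mRNA fragments covered by ribosomes, giving 10 libraries with 1 library in each group. The design contains no replicates, so no difference below was tested, all 4 treated times share 1 control library in each assay, and intervals cover counting error only.

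CIP/KIP proteins bind complexes of cyclins with CDK2 and other cell-cycle kinases, and INK4 proteins bind CDK4 and CDK6 and keep them from the D-type cyclins. Both keep the retinoblastoma protein and its relatives active, and these hold back the E2F target genes needed for DNA replication. CDKN1A is a classic direct target of p53, and in fibroblasts the proteins of CDKN1A and CDKN2A are long known for their roles in cell-cycle arrest and senescence.

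RefSeq promoter windows (GRCh38.p14, 250 bases before each start) were found for 6 of the 7 members, 9 windows in all, because CDKN2A has 2 listed starts and CDKN2C has 3. CDKN1C had no entry. The windows are given 5′ to 3′ along the gene for the 4 members whose levels were high enough to be called below, and for CDKN2C at the start whose window held the most matches. They lie at chr6:36678464-36678713 on the plus strand for CDKN1A, chr12:12717118-12717367 on the plus strand for CDKN1B, chr1:50968456-50968705 on the plus strand for the second start of CDKN2C, and chr19:10568980-10569229 on the minus strand for CDKN2D. Capitals mark GC boxes, the letters GGGCGG bound by Sp1 family factors, and CCAAT boxes, the letters CCAAT bound by NF-Y, on either strand.
CDKN1A: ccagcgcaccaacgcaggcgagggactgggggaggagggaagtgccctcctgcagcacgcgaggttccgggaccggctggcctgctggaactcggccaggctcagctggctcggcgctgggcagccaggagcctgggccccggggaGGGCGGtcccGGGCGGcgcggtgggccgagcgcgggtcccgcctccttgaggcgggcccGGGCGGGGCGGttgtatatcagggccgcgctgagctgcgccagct
CDKN1B: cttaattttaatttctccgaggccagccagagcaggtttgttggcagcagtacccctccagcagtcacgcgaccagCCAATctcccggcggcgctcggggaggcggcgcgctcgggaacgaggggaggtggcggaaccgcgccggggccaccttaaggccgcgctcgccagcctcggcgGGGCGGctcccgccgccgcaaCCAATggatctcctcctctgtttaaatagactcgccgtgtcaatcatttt
CDKN2C, second start: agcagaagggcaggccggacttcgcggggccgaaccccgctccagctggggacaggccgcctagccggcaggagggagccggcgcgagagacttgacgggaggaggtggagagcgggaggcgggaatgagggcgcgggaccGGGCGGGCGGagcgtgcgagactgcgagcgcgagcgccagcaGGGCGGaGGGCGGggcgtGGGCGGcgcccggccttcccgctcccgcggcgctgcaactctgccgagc
CDKN2D: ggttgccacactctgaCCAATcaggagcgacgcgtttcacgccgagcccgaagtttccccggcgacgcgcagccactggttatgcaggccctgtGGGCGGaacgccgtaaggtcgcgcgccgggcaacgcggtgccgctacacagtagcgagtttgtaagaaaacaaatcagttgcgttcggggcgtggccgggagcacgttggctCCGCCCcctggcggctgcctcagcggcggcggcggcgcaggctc

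The CDKN1A window held 4 GC boxes, 2 of them overlapping, and no CCAAT box. The second CDKN2C start had 5 GC boxes, also with an overlapping pair, whereas CDKN1B had 1 GC box and 2 CCAAT boxes and CDKN2D had 2 GC boxes and 1 CCAAT box. Of the windows not printed, the first CDKN2C start and the first CDKN2A start held neither box, the third CDKN2C start held 1 of each, and the second CDKN2A start and CDKN2B held 1 and 2 GC boxes. A GC box occurred in 42.6% and a CCAAT box in 32.0% of all 35114 windows. Both are thus common among promoters. Of the sites associated with cell-cycle genes, E2F sites were searched as TTTCCCGC, TTTCGCGC, TTTGCCGC or TTTGGCGC and the cell-cycle homology region as TTTGAA, on both strands. They occurred in 2.79% and 13.3% of all windows, and neither was in any of the 9 windows of the members. For the TATA box only the letters TATAAA were searched, which were in 10.7% of all windows and in none of the members'. Other forms of the TATA box were not searched, so this count does not show that the members lack one. These counts describe the letters of the windows only and say nothing about binding. GC content was 76.4% in the CDKN1A window, 64.4% in that of CDKN1B, 77.2% at the second CDKN2C start and 67.6% in that of CDKN2D, all above the median of 58.0% over all windows. The other CDKN2C starts were lower, at 45.6% and 48.8%.

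Levels below are in FPKM, reads scaled to the length of the transcript and to the size of the library, as deposited by the authors. The recovered library totals were 23845559 to 27554289 reads for RNA-Seq and 7744900 to 14460726 reads for Ribo-Seq, with the lowest total in the 19 h Ribo-Seq library. The fibroblast identity of the cells was visible in the RNA. All 12 fibroblast markers examined were at 5 FPKM or more in the control, 1 of 8 epithelial markers was, and the 2 endothelial and 2 blood cell markers listed in the RNA-Seq table stayed below 1 FPKM. In bulk libraries such as these, fewer cells of a type and less RNA per cell cannot be told apart. The same transcript length served both assays, so that long non-coding ends may lower the Ribo-Seq level of a gene, depending on whether reads outside the coding sequence were counted. The reference transcripts were 3828 nt long for CDKN2B, 2904 nt for CDKN2C, 2051 nt for CDKN1C, 1398 nt for CDKN2D, 1157 nt for CDKN1A, 1151 nt for CDKN2A and 897 nt for CDKN1B. Levels and TE of different members in Ribo-Seq are compared with this limit.

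In untreated fibroblasts the inhibitor genes spanned over 2 orders of magnitude in RNA. CDKN1A stood highest, at 68.6 FPKM (95% Poisson interval 65.5 to 71.7). It was followed by CDKN2C at 34.5, CDKN2D at 19.6, CDKN1B at 17.5, CDKN2A at 4.55, CDKN2B at 1.62 and CDKN1C at 0.266 FPKM. Only CDKN2D and CDKN1B had overlapping counting intervals with their neighbour in this order. In Ribo-Seq the order was CDKN1A at 164 FPKM, CDKN2C at 40.9, CDKN1B at 28.3, CDKN2D at 24.9, CDKN2A at 4.14, CDKN1C at 0.746 and CDKN2B at 0.622. Here CDKN1B overlapped CDKN2D, and CDKN1C overlapped CDKN2B. Thus 1 CIP/KIP gene, CDKN1A, and 1 INK4 gene, CDKN2C, led in both assays, and each family also held genes near the bottom of the table.

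The level of CDKN1A, the inhibitor that p53 induces, was above the control at every treated time in both assays. Its RNA was at 68.6 FPKM in the control and at 212, 915, 1204 and 1316 FPKM after 2, 4, 6 and 19 h. Its ribosome density was at 164 FPKM in the control and at 488, 2729, 3708 and 3227 FPKM at the same times. No treated library came near the control in either assay. The RNA was 3.10-fold above the control at 2 h (95% counting interval 2.94 to 3.26), 13.3-fold at 4 h (12.73 to 13.97), 17.6-fold at 6 h (16.8 to 18.4) and 19.2-fold at 19 h (18.3 to 20.1). Among the 7015 tested transcripts, those at or above 5 FPKM somewhere in RNA-Seq and somewhere in Ribo-Seq, these log2 changes took ranks 27, 4, 2 and 3 from the top in time order. The density was 2.98-fold, 16.7-fold, 22.6-fold and 19.7-fold above the control in turn, at ranks 53, 5, 4 and 4.

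Most of the CDKN1A response was in place by 4 h. Between the 2 h and 4 h libraries RNA was 4.31-fold higher and density 5.59-fold higher. The step from 4 to 6 h was 1.32-fold in RNA and 1.36-fold in density. From 6 to 19 h the assays parted, with RNA at 1.09-fold and density at 0.870-fold of the earlier level. Translational efficiency (TE), here the log2 ratio of Ribo-Seq to RNA-Seq FPKM, was 1.257 in the control and 1.201, 1.577, 1.623 and 1.294 in time order. CDKN1A mRNA thus carried more ribosome reads for its RNA level than the median tested gene, at -0.27 in the control and between -0.35 and -0.10 later, in all 5 conditions. The limit from non-coding ends holds here too, as its reference transcript had 1157 nt against a median of 2603 nt. The TE changes of CDKN1A, -0.06, 0.32, 0.37 and 0.04 from the control, were too small to be called, by the rule given next, at all 4 times.

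**Figure D1:**
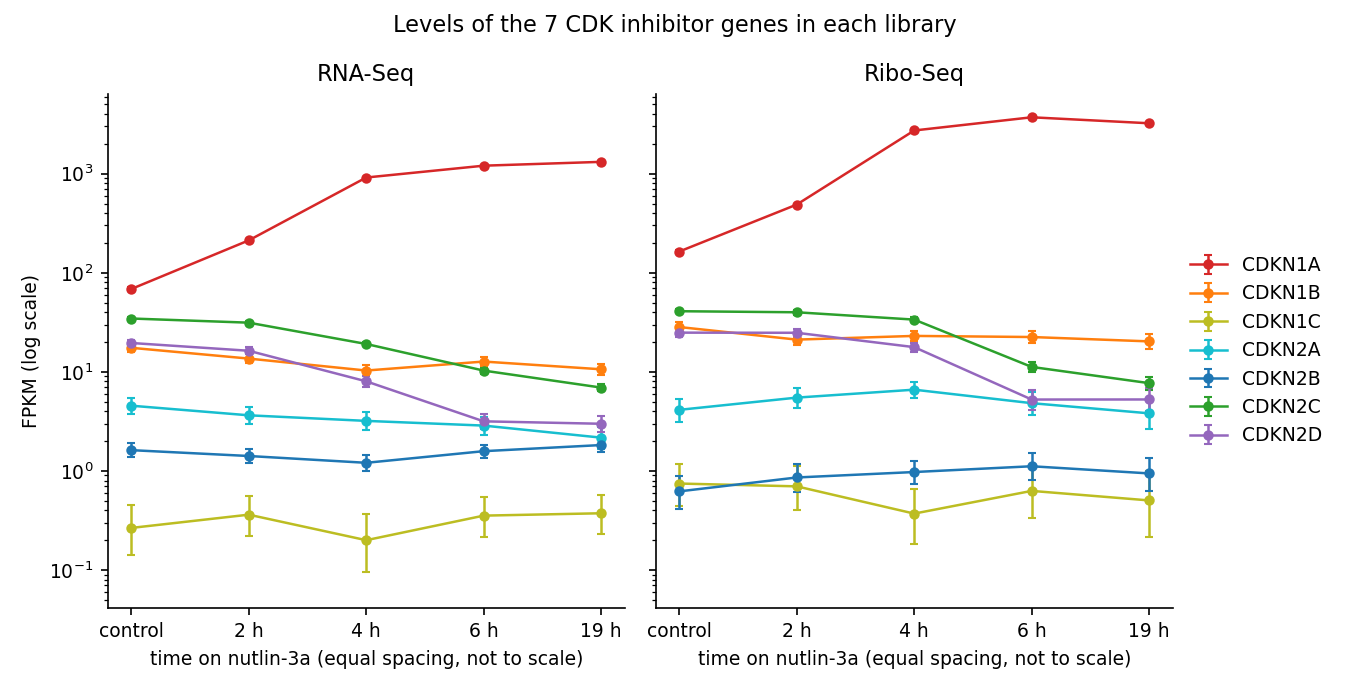
FPKM (log axis) of the 7 CDK inhibitor genes in each of the 5 RNA-Seq and 5 Ribo-Seq libraries, 1 point per library, with 95% Poisson intervals from recovered reads as bars. CDKN1A goes from 68.6 to 1316 FPKM in RNA, CDKN2C and CDKN2D fall, and CDKN1C and CDKN2B stay near or below 1 to 2 FPKM.

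A change from control was called when its log2 size reached a fixed multiple of the local SD of transcripts of like level, with values below 1 FPKM set to 1. This follows the dynamic cut-off in the methods of the study. In RNA at 19 h the cut-off was 0.88 at the level of CDKN1A and 1.596 at that of CDKN2D. With 1 library in each group, the spread across transcripts stands in for the spread between replicates, and the call is a rule of size. Of the 7 members 4 could be called, CDKN1A, CDKN1B, CDKN2C and CDKN2D, all of which were above 5 FPKM in the controls of both assays already. CDKN1C, CDKN2A and CDKN2B did not reach 5 FPKM in both assays. In RNA, 2 of the 4 members were called at 2 h against 4.23% of all tested transcripts, 4 of 4 at 4 h against 6.6%, and 3 of 4 at 6 h against 6.36%. At 19 h again 3 of 4 were called in RNA, against 6.53%. That count was made of 1 member called higher, against 1.55% of tested transcripts, and 2 called lower, against 4.98%. In ribosome density, 1 of 4 was called at 2 h against 6.32%, 1 at 4 h against 7.8%, 3 at 6 h against 7.01% and 3 at 19 h against 7.23%. In TE the counts were 0 at 2 h against 7.43%, 2 at 4 h against 12.9%, 0 at 6 h against 6.84% and 0 at 19 h against 7.9%. The median RNA change of the 4 members at 19 h was -1.52 on the log2 scale, and that of all tested transcripts was -0.07.

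CDKN1B, which encodes p27, was modestly lower in RNA after nutlin-3a, with calls at 2 and 4 h. Its RNA was at 17.5 FPKM in the control and at 13.6, 10.3, 12.7 and 10.6 FPKM at 2, 4, 6 and 19 h. All treated libraries lay below the control, and none of their counting intervals reached its level. The changes were -0.36 (counting SE 0.11) at 2 h and -0.76 (SE 0.12) at 4 h on the log2 scale, both called, and -0.46 and -0.72 at 6 and 19 h, neither called. The 2 h call was only just past its cut-off of 0.335 and was lost with log2(FPKM + 1), after centring on the median of all tested transcripts and after removal of a trend over length. The 4 h call was lost with log2(FPKM + 1), at -0.71, and against the 2 h library as baseline, at -0.40. Ribosome density was at 28.3 FPKM in the control and at 21.2, 23.1, 22.5 and 20.3 FPKM afterwards, with no call at any time. The density change at 19 h was -0.48 with a 95% counting interval of -0.77 to -0.19. The p27 gene therefore stood below its control level in all 8 treated libraries, by less at every time than CDKN1A stood above.

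CDKN1C, which encodes p57, was barely detected. Its RNA was at 0.266 FPKM in the control and at 0.362, 0.200, 0.354 and 0.374 FPKM in time order, from 10 to 20 reads per library. Ribo-Seq gave 0.746 FPKM in the control and 0.699, 0.371, 0.629 and 0.504 FPKM, from 8 to 18 reads. The libraries could not be told apart at this depth. At 19 h the RNA change had a counting SE of 0.514 on the log2 scale. Its interval ran from -0.516 to 1.499, so that a rise, a fall and no change could not be told apart.

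Among the INK4 genes, CDKN2C and CDKN2D fell in steps. CDKN2C RNA was at 34.5 FPKM in the control and at 31.4, 19.1, 10.3 and 6.94 FPKM at 2, 4, 6 and 19 h. Each library was below the one before it, and the 19 h level was 0.201 of the control (95% counting interval 0.183 to 0.221). The log2 changes were -0.14, -0.85, -1.75 and -2.32, and those at 4, 6 and 19 h were called. Ribosome density of CDKN2C was at 40.9 FPKM in the control and at 39.9, 33.7, 11.2 and 7.69 FPKM. Its log2 changes were smaller than those in RNA at 4 h, with values of -0.04 at 2 h and -0.28 at 4 h that were not called (the interval at 4 h was -0.39 to -0.18) and of -1.87 at 6 h and -2.41 at 19 h that were. Under a filter that required a mean of 20 FPKM in each assay, the local spread was wider, and the RNA calls at 6 and 19 h and the density call at 19 h were lost.

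CDKN2D RNA was at 19.6 FPKM in the control and at 16.3, 8.02, 3.17 and 2.99 FPKM in time order. On the log2 scale the largest step was that from 4 to 6 h, at -1.34, against -1.03 from 2 to 4 h. The counting intervals of these steps, -1.65 to -1.03 and -1.23 to -0.82, overlapped. The 6 and 19 h libraries did not differ beyond counting error, with a log2 step of -0.08 and an interval of -0.45 to 0.29. At 4 h the log2 change of -1.29 was the 22nd lowest of the 7015 tested transcripts. The changes of -2.63 at 6 h and -2.71 at 19 h were called as well, and that of -0.26 at 2 h was not. With a floor of 5 FPKM in place of 1, the changes at 6 and 19 h were both -1.97 and still called. Both levels lie below that floor, so it fixes this value. Ribosome density of CDKN2D was at 24.9 FPKM in the control, and at 24.8, 17.8, 5.26 and 5.26 FPKM. The 2 h library matched the control within counting error, with a change of -0.005 and an interval of -0.20 to 0.19, and the change of -0.49 at 4 h, with an interval of -0.69 to -0.28, was not called. Those of -2.24 at both 6 and 19 h were.

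CDKN2A, the gene of p16 and ARF, could not be called because its RNA stayed below 5 FPKM. The tables hold 1 transcript for each gene, so the p16 and ARF mRNAs are not separated. Its RNA was at 4.55 FPKM in the control and at 3.64, 3.20, 2.87 and 2.17 FPKM in time order, from 125, 113, 90, 91 and 65 reads. The 19 h level was 0.476 of the control, and the interval of this log2 change ran from -1.503 to -0.638. In Ribo-Seq CDKN2A was at 4.14 FPKM in the control and at 5.50, 6.61, 4.83 and 3.81 FPKM, from 56, 75, 110, 56 and 34 reads. The density was thus highest at 4 h, with a log2 change of 0.68 and an interval of 0.21 to 1.14, and at 19 h the interval of -0.73 to 0.50 included 0. The log2 ratio of Ribo-Seq to RNA-Seq for CDKN2A was -0.14 in the control and 0.59, 1.05, 0.75 and 0.82 at the treated times, so that it was lowest in the control. The 4 changes share that control library and its 56 reads.

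CDKN2B, the p15 gene next to CDKN2A on the chromosome, also stayed too low to be called. Its RNA was at 1.62 FPKM in the control and at 1.42, 1.21, 1.58 and 1.83 FPKM in time order. At 4 h the log2 change was -0.42 with an interval of -0.78 to -0.07. At 19 h it was 0.17 with an interval of -0.14 to 0.48. Ribo-Seq gave 0.622 FPKM in the control and 0.859, 0.975, 1.12 and 0.944 FPKM, from 28 to 54 reads. All treated Ribo-Seq values were above the control value, but only at 6 h did the interval of the change, 0.16 to 1.53, leave out 0. RNA of the neighbours CDKN2A and CDKN2B differed at 19 h, with log2 changes of -1.07 and 0.17 whose intervals did not overlap. At 4 h their changes were close, at -0.51 and -0.42.

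**Figure D2:**
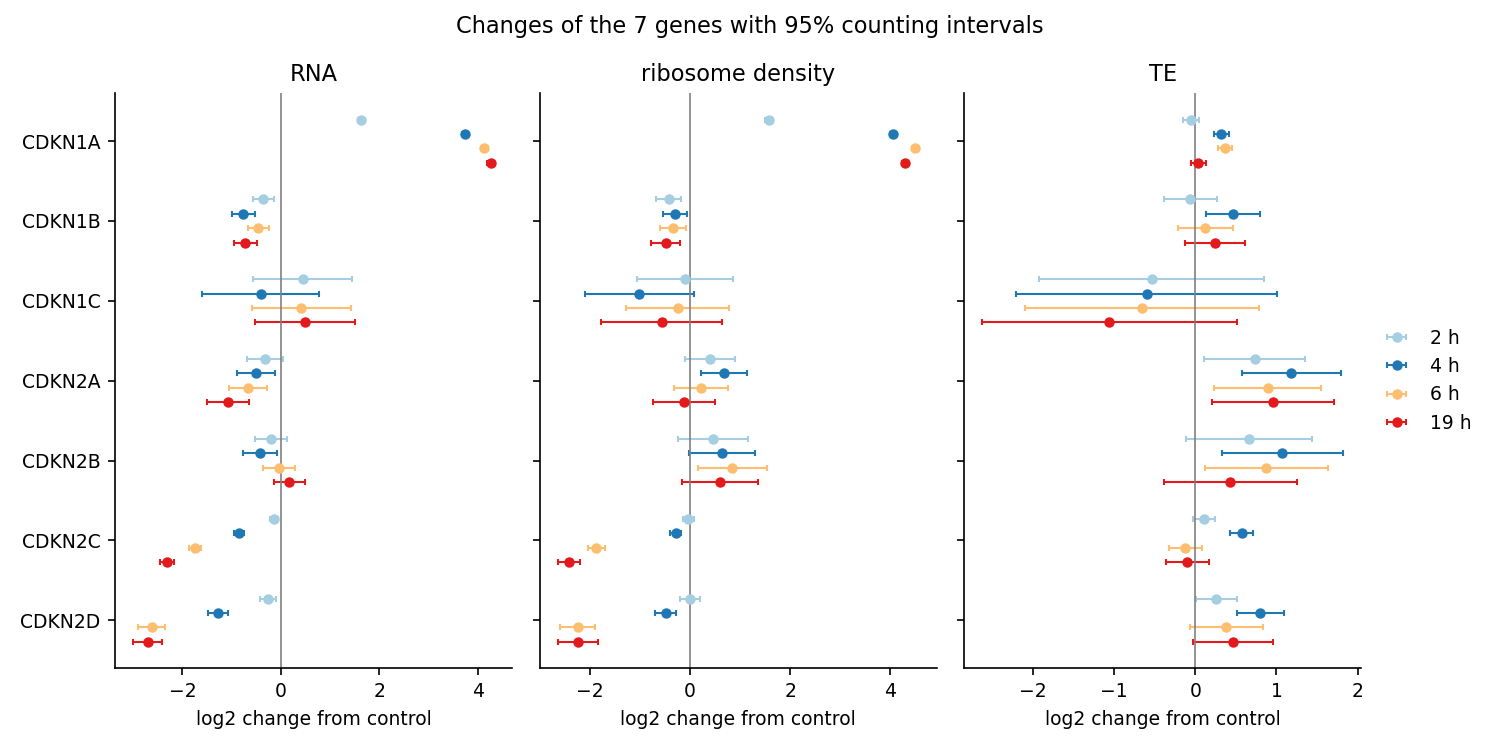
Log2 changes from control of the 7 genes in RNA, ribosome density and TE (horizontal axes, a wider scale in the TE panel), coloured by time, with 95% counting intervals as bars. CDKN1A lies far to the right in RNA and density, CDKN2C and CDKN2D lie left of 0 from 4 h in both, by less in density (-0.28 and -0.49) than in RNA (-0.85 and -1.29) at 4 h, and the intervals of CDKN1C include 0 in all panels.

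At 4 h the RNA of CDKN2C and CDKN2D had fallen, whereas the density had not been called. This put both among the TE calls of that time. TE of CDKN2C was 0.25 in the control and 0.35, 0.82, 0.12 and 0.15 in time order. TE of CDKN2D was 0.35, 0.60, 1.15, 0.73 and 0.82 in the same order. Both peaked at 4 h, with changes from control of 0.57 (counting SE 0.07) for CDKN2C and 0.80 (SE 0.15) for CDKN2D, above 90.2% and 97.3% of tested transcripts. CDKN1B had a TE change of 0.46 at that time, just under its cut-off of 0.49. TE of all tested transcripts had shifted by a median of 0.18 at 4 h, and 847 were called higher against 58 lower. After centring on that median, 308 were called higher and 246 lower, CDKN2D was still called, and CDKN2C at 0.39 was not. With the 2 most abundant transcripts of each assay left out of the scaling, the median was 0.02, CDKN2D was called and CDKN2C, at 0.42, was not. These transcripts took 13.8% of the Ribo-Seq reads in the control and 5.12%, 3.84%, 5.72% and 11.7% in time order. The TE medians of all tested transcripts were 0.045, 0.179, 0.002 and -0.067 in time order. With these transcripts left out of the scaling they were -0.093, 0.021, -0.124 and -0.098. What brought about the shift at 4 h was not tested. Against the 2 h library as baseline neither CDKN2C nor CDKN2D was called, at 0.47 and 0.54. At 6 and 19 h no TE change of a member was called. Those of CDKN2D, at 0.38 and 0.47, were -0.28 and -0.27 with the floor of 5 FPKM, which lies above its RNA levels at these times.

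**Figure D3:**
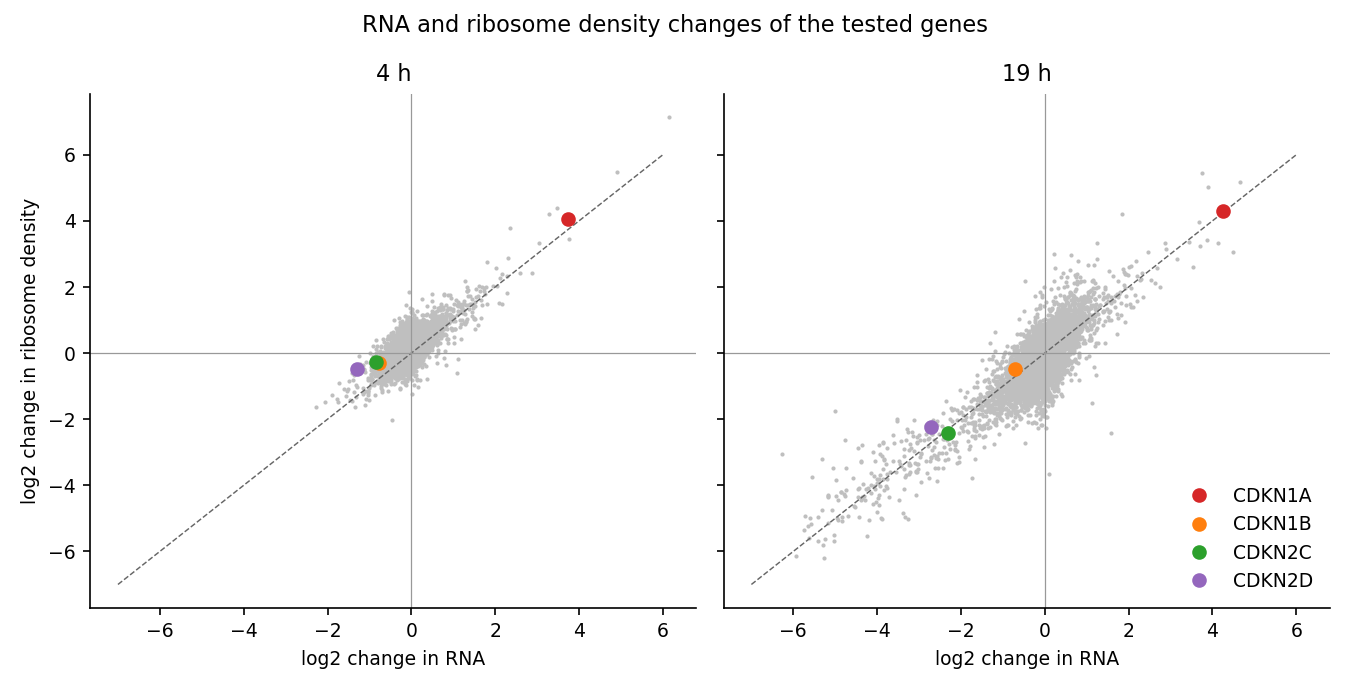
Log2 change in ribosome density (vertical) against that in RNA (horizontal) for the 7015 tested transcripts (grey points) at 4 h and 19 h, with the 4 tested CDK inhibitor genes in colour and the line of equal change dashed. At 4 h CDKN2C and CDKN2D lie above the line (RNA -0.85 and -1.29, density -0.28 and -0.49), and at 19 h CDKN1A, CDKN1B and CDKN2C lie 0.04 to 0.24 from it in density and CDKN2D 0.47 above it.

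The make-up of the inhibitor pool shifted towards CDKN1A. Summed over the 7 genes, RNA was at 147 FPKM in the control and 1341 FPKM at 19 h. CDKN1A made up 46.8% of this sum in the control and 76.1%, 95.6%, 97.5% and 98.1% in time order. In Ribo-Seq its share was 62.2%, 84.0%, 97.1%, 98.8% and 98.8% in the same order. The other 6 genes together went from 78.03 to 24.9 FPKM in RNA between the control and 19 h, and from 99.6 to 38.5 FPKM in Ribo-Seq. Most of this decline was in the INK4 family, whose summed RNA went from 60.3 to 13.9 FPKM and whose summed density went from 70.6 to 17.7 FPKM.

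**Figure D4:**
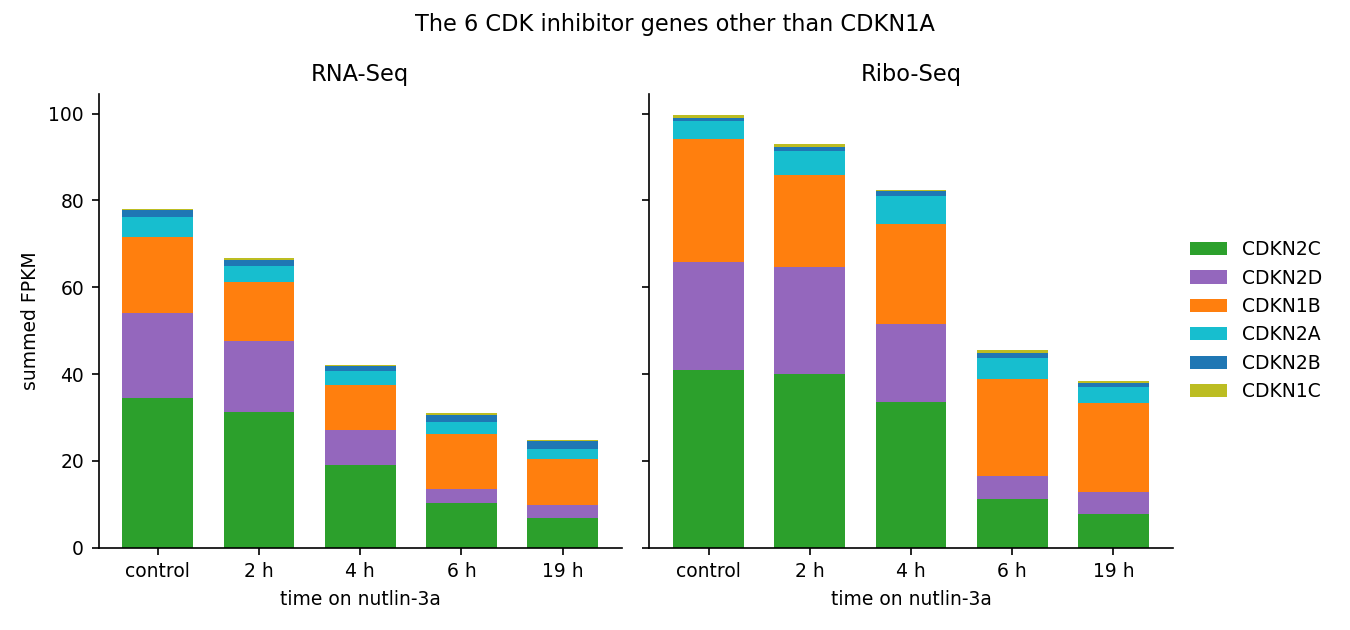
Summed FPKM (bars from 0) of the 6 CDK inhibitor genes other than CDKN1A, stacked by gene, in each RNA-Seq and Ribo-Seq library. The RNA sum goes from 78.03 FPKM in the control to 24.9 FPKM at 19 h, and the CDKN2C and CDKN2D segments shrink the most.

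Of 3 kinases that these proteins bind, CDK2 was called lower in RNA from 4 h on. CDK4 and CDK6 were not called in RNA at any time. CDK2, the partner of cyclins E and A, was at 39.5 FPKM in the control in RNA and at 34.0, 25.1, 7.13 and 4.61 FPKM in time order. CDK4 RNA went from 105 to 58.9 FPKM at 19 h and CDK6 RNA from 16.9 to 17.7 FPKM. Set against the sum of the 3 kinases, the summed inhibitor RNA was 0.909 in the control and 1.85, 6.68, 13.3 and 16.5 in time order. In Ribo-Seq this ratio was 1.66, 4.07, 20.9, 56.5 and 51.7. The INK4 genes alone, set against CDK4 and CDK6, took the opposite course, at 0.495, 0.450, 0.267, 0.209 and 0.182 in RNA. In Ribo-Seq that ratio was 0.606, 0.695, 0.595, 0.363 and 0.301. These are ratios of transcript levels and ribosome densities, not of proteins.

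The members fell into separate courses when compared with all other tested genes. Likeness was measured as the Euclidean distance over 8 values, the log2 changes in RNA and in density at the 4 times, floored at 1 FPKM. The 3 genes nearest to CDKN1A were MDM2, the p53 ubiquitin ligase, at a distance of 1.79, BBC3, which encodes the cell-death protein PUMA, at 2.65, and BTG2, an antiproliferative p53 target, at 2.74. CDKN2C was nearest to TOPBP1, a replication checkpoint protein, at 0.483, to the histone chaperone gene NASP at 0.53 and to the condensin gene SMC4 at 0.544. CDKN2D was nearest to the helicase gene DDX11 at 0.6, to the replication fork repair gene TONSL at 0.693 and to GSG2, which encodes the mitotic kinase haspin, at 0.764. The nearest genes of CDKN1B were RNMTL1, ALKBH2 and CCDC127, at 0.414, 0.473 and 0.477. CDKN2C and CDKN2D lay 1.16 apart, and the CIP/KIP genes CDKN1A and CDKN1B lay 11.8 apart. CDKN1A was also far from CDKN2C and CDKN2D, at 14.5 and 15.3, whereas CDKN1B lay 3.24 and 3.98 from them. A typical distance between gene pairs was not computed.

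The pathway around the inhibitors was described with lists of known genes, by the same rule of size. Over all tested transcripts, 0.827%, 3.02%, 4.73% and 4.98% were called lower in RNA in time order, and 3.41%, 3.58%, 1.63% and 1.55% were called higher. Of 20 genes repressed through the RB-E2F or DREAM pathways, on which the inhibitors act, 19 were tested. In RNA, none was called at 2 h, 11 were called lower at 4 h and 18 at 6 h and at 19 h, and none was called higher at any time. Their median log2 changes in RNA were -0.11, -0.49 and -2.89 at the 2, 4 and 6 h times. At 19 h 5 of the 19 were below 1 FPKM, so that the floor of 1 FPKM limits their changes, and the median was -3.55 with the floor and -3.79 without it. The values at 19 h ranged from -1.11 for TYMS (thymidylate synthase) to -5.94 for RRM2, a ribonucleotide reductase subunit, with the floor. Without it MYBL2, a transcription factor gene, was lowest at -6.19. CDKN2C and CDKN2D, at -0.85 and -1.29 at 4 h and -2.32 and -2.71 at 19 h, lay within the range of this list at both times. The range at 4 h was wide, from 0.16 to -1.74, and it held CDKN1B at -0.76 as well. At 19 h CDKN2C and CDKN2D had fallen by less than the list median.

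Of 14 cyclins and CDKs of the cell cycle, 11 were tested. In RNA 0, 2, 4 and 4 of them were called lower in time order, with 0 called higher at any time. At 19 h CCND1, the cyclin D1 gene, had the highest log2 change, at 0.21, and CDK1, the mitotic kinase gene, the lowest, at -5.63 with the floor and -5.71 without. Of 18 pocket protein, E2F and associated genes 8 were tested, and 0, 1, 3 and 2 were called lower. The only one called higher was E2F7, a repressive E2F, at 4 h with a log2 change of 1.55. At 19 h E2F1 was lowest, at -4.77 with the floor and -5.37 without, and LIN37, a DREAM subunit gene, was highest at 0.04. The only tested gene among the 3 CDC25 phosphatases, which remove inhibitory phosphates from CDKs, was CDC25B, called lower from 4 h on and at -1.35 at 19 h.

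Of 16 genes whose products degrade CDK inhibitors, 14 were tested, and 0, 4, 5 and 5 were called lower in RNA in time order. The only one called higher was MDM2, at all 4 times, with a log2 change of 4.13 at 19 h. The lowest at 19 h was CDC20, an activator of the anaphase-promoting complex, at -5.74 with the floor, and DTL, a gene of the CUL4 ubiquitin ligase that targets p21, at -6.01 without it. Of 29 transcriptional regulators of inhibitor genes 21 were tested. At 2 h 5 of these were called higher and 0 lower, namely ID1 at 1.199, ID2 at 1.05, ID3 at 0.99, ETS1 at 0.65 and ETS2 at 0.50. At the later times 0 were called higher and 3, 2 and 2 lower. At 19 h they ranged from 0.82 for ID2, an inhibitor of bHLH factors, to -3.23 for EZH2, the histone methyltransferase of Polycomb complexes that act on the CDKN2A locus.

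Of 11 other inhibitors and brakes of CDKs 9 were tested. In RNA 4, 3, 2 and 2 were called higher and 0, 1, 3 and 3 lower in time order. The 4 called higher at 2 h were BTG2 at 2.56, GADD45B at 1.85, GADD45A at 1.41 and PLK3 at 1.36. At 19 h the list ranged from 4.66 for BTG2 to PKMYT1, a kinase that inhibits CDK1, at -4.76 with the floor and -5.15 without. Of the 4 partners of p21 and ARF outside the CDKs, all were tested and 1 was called lower from 4 h on, FEN1 (a flap endonuclease), at -4.15 at 19 h, while PCNA, the replication clamp that p21 binds, was highest at -0.51.

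**Figure D5:**
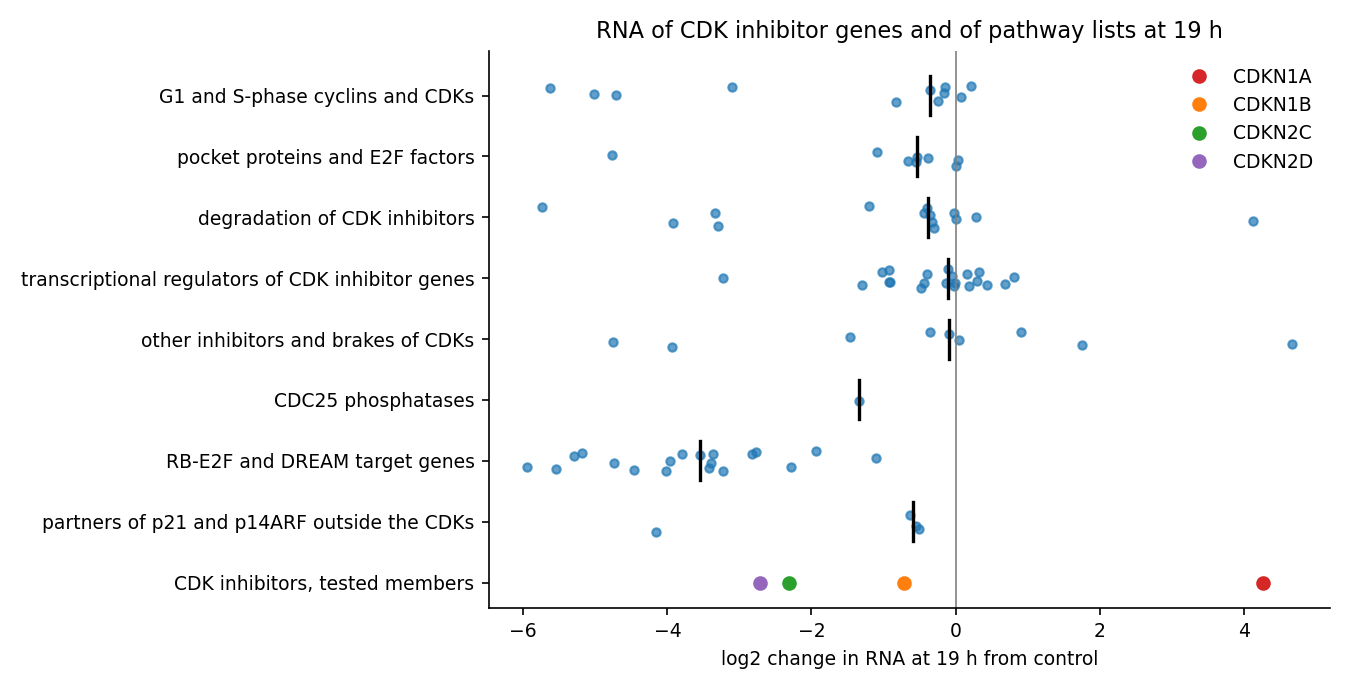
Log2 change in RNA at 19 h (horizontal) of each tested gene in 8 pathway lists (blue points, black bars for list medians) and of the 4 tested CDK inhibitor genes (coloured points). The RB-E2F and DREAM targets are all below 0 with a median of -3.55 (values floored at 1 FPKM), CDKN2C and CDKN2D lie at -2.32 and -2.71, and CDKN1A lies at 4.26.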

How the data were processed

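RNA-Seq and Ribo-Seq were each applied to 5 BJ cultures (control, and 2, 4, 6 and 19 h of nutlin-3a), grouped by the sample labels. Reads had been aligned by the authors with Bowtie (hg19 in the submitters' processing notes) to 1 protein-coding transcript per gene from Ensembl release 65, and uniquely mapped reads kept, so that reads shared by related genes were lost. The deposited values are FPKM with 3 decimals. The assay of each table was taken from its name, and low poly(A)-less histone transcripts in the RNA-Seq table (20 of 26 below 1 FPKM in its control, 0 in that of Ribo-Seq) were an added check. The methods give coding-sequence reads for Ribo-Seq while the column names say total, and this was not resolved. The study describes a sequencer-run batch effect, and the labels name no run. Its list of samples by run holds nutlin-3a at 6 and 19 h and does not include the 2 and 4 h libraries.

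Whole reads, lengths and library totals followed from the steps between low FPKM values for 11245 of 11258 transcripts (99.9%), and the recovery was tested on simulated data. They gave the counting errors: 95% Poisson intervals for levels, normal intervals on the log2 scale for changes. Log2 changes used values floored at 1 FPKM, except for CDKN1C and CDKN2B, whose changes are given without the floor. Local SDs came from a sliding window of 301 transcripts. The members, lists and rules were chosen with earlier results of these data known. The text names all 7 members, the 3 tested genes nearest to each tested member, the highest and lowest tested gene of each list in RNA at 19 h, and CDK2, CDK4 and CDK6. Genes named for calls at 2 or 4 h, and MYBL2 and DTL, were added after their values were seen. Promoter windows came from RefSeq. Alternatives were another floor or pseudocount, other filters, baseline, scalings, a length correction and a fixed 2-fold cut-off. Python 3.11.15, numpy 2.4.6, pandas 2.3.3, scipy 1.17.1 and matplotlib 3.10.9 were used.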

Additional observations from a re-analysis of the deposited data

How the results depend on the processing

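With 1 library in each group, no replicate could be left out and no p-value was available, and the depth of 7744900 reads at 19 h limits CDKN1C, CDKN2A and CDKN2B in Ribo-Seq. No paired analysis was possible because each group holds 1 library. No change of direction of a called value was seen in the alternatives run. Of 187 alternatives to called changes of the 4 tested members, 170 were still called and 17 were not. Of 209 alternatives to uncalled changes of the same members 0 became called. The TE calls that CDKN2A and CDKN2B gained with no filter, given below, lie outside these counts. CDKN1A was called in RNA and density under every alternative run.

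The count of 2 members called in RNA at 2 h became 1 with log2(FPKM + 1), with a mean of at least 20 FPKM required in each assay, after centring, after removal of the trend over transcript length, and with a fixed 2-fold cut-off, since CDKN1B was lost or no longer tested. The 4 called at 4 h became 2 with the mean of 20 FPKM and with the 2-fold cut-off. The mean of 20 FPKM left 2 members to test and gave 1 in RNA at 6 and 19 h, 1 in density at 19 h and 1 in TE at 4 h. With no filter all 7 genes were tested, and TE counts became 1 at 2 h (CDKN2A), 4 at 4 h (CDKN2A and CDKN2B added) and 1 at 19 h (CDKN2A). The TE count at 4 h was 1 after centring and after scaling without the 2 most abundant transcripts, and 0 with the 2 h baseline and with the 2-fold cut-off. Against CDK4 and CDK6 only, the summed inhibitors were at 1.204, 2.383, 8.1, 14.4 and 17.5 in RNA (control, 2, 4, 6 and 19 h) and at 2.26, 5.68, 28.3, 60.9 and 55.4 in Ribo-Seq. Over all tested transcripts, scaling without the 2 most abundant moved the split of density calls from 338 higher and 105 lower to 224 and 262 at 2 h and from 452 and 95 to 244 and 214 at 4 h. Centring moved it from 251 and 212 to 296 and 153 in RNA at 4 h and from 132 and 375 to 195 and 277 in density at 19 h. Apart from CDKN1B at 2 h in RNA, no member gained or lost an RNA or density call under these scalings.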
